A study of Mus musculus with 4 samples.

Results

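The interferon signalling entry point in mouse cells under reprogramming was examined through 10 genes: the ligand gene Ifnb1, the receptor chain genes Ifnar1, Ifnar2, Ifngr1, Ifngr2 and Il10rb, the kinase genes Jak1, Jak2 and Tyk2, and the feedback gene Socs1. They were picked by symbol, and all 10 were found among the 22369 genes of the deposited table. RNA was sequenced from OG2MEF cells, mouse embryonic fibroblasts with a GFP reporter of Oct4 activity, sampled on day 9 of reprogramming. There were 2 libraries labelled SOX17-V118M, a form of the endodermal transcription factor SOX17 with a missense change, and 2 labelled SOX17 WT. The protocol in the labels describes retroviral transduction with pMX vectors for Sox2 and Klf4 along with OCT4, SOX17, SOX17-V118M or GFP, for all cultures alike, but leaves out which vectors went into which library. Both groups were then kept in embryonic stem cell medium with LIF, itself a cytokine that acts through JAK kinases, and vitamin C.

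Type I interferons such as interferon beta bind a receptor built of the IFNAR1 and IFNAR2 chains, to which the kinases TYK2 and JAK1 are attached. Interferon gamma binds IFNGR1, paired with IFNGR2, and signals through JAK1 and JAK2. The IL-10 receptor beta chain, encoded by Il10rb, is shared by the receptors for IL-10, IL-22 and interferon lambda. The activated kinases phosphorylate STAT proteins, which drive interferon-induced genes, and SOCS1, itself induced in this way, inhibits the kinases. Receptors and kinases are present on most cells before any interferon arrives, whereas Ifnb1 is normally silent until a cell senses infection.

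Values in the table are normalized scores in whole numbers and not read counts. The column totals lay between 12855482 and 12859613, and the median score was 76 in each library. The sequencing depth is unknown, so no counting interval is given. V118M replicate 2 stood apart: over the 12661 genes whose mean log2 score reached 5, it correlated with the other libraries at a Pearson's r of 0.954 to 0.964, whereas those 3 reached 0.986 to 0.990 among themselves. Each library's deviation from the mean of the other 3 was set against transcript length, with a Spearman's rho across genes, which are not independent replicates, of 0.382 and -0.458 in V118M and 0.390 and 0.0777 in WT. A length trend was thus present in 3 libraries, in V118M replicate 2 opposite to that in both replicate 1 libraries, and each such deviation contains the other libraries' values. All 12 listed fibroblast markers were above 0 in every library, with the collagen gene Col1a2 tied at 29492 in all 4. Of 9 pluripotency markers, Pou5f1, the Oct4 gene, was at the table's highest value of 61186 in all 4 libraries. That value was held by 10 genes in each library, so the tie does not show equal expression. OCT4 is also among the vectors named in the protocol, and the part of vector transcript in this score was not tested. Of the 9 markers, 7 were tested, and the median of their log2 fold changes was 0.70. Of these, 1 had an unadjusted p under 0.05 (limma), against 4.01% of all genes tested. The groups did not overlap in 2 of the 7, both higher in V118M, which is close to the 28.0% of all genes tested. Those 2 were Utf1, at 33 and 38 in V118M and 10 and 17 in WT, and Tdgf1, at 188 and 149 in V118M and 83 and 126 in WT, whereas Nanog was at 6 and 6 in V118M and at 1 and 8 in WT. Sox17 itself scored 3016 and 2396 in V118M and 3484 and 2880 in WT. Of the other vector genes, Klf4 was at 29444 and 17589 in V118M and 29444 and 29444 in WT, while Sox2, also named in the protocol, was near 0, at 4 and 2 in V118M and 2 and 2 in WT. The table holds no sequence, so the mutation could not be read from it.

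Fold changes below are V118M over WT on the log2(score + 1) scale, from limma fitted over the 19547 genes with a score of at least 1 in at least 2 libraries, and all 10 genes passed that filter. No gene reached an adjusted p of 0.05 (limma, Benjamini-Hochberg), which is 0% of those tested, and none of the 10 did. An unadjusted p under 0.05 was reached by 784 genes, 4.01% of those tested (2.31% higher and 1.70% lower in V118M), and by 1 of the 10, Socs1, which was higher. The 2 groups did not overlap in 5 of the 10, Ifnar1, Ifngr2, Il10rb, Jak1 and Socs1, against 28.0% of all genes tested (13.2% higher and 14.8% lower). Of the 5, 2 were higher and 3 lower. The median log2 fold change over the 10 was -0.030, and over all genes tested it was 0. Nothing in the labels marks the replicates as independent cultures, so the p-values rest on a spread that may be technical only.

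**Figure D1:**
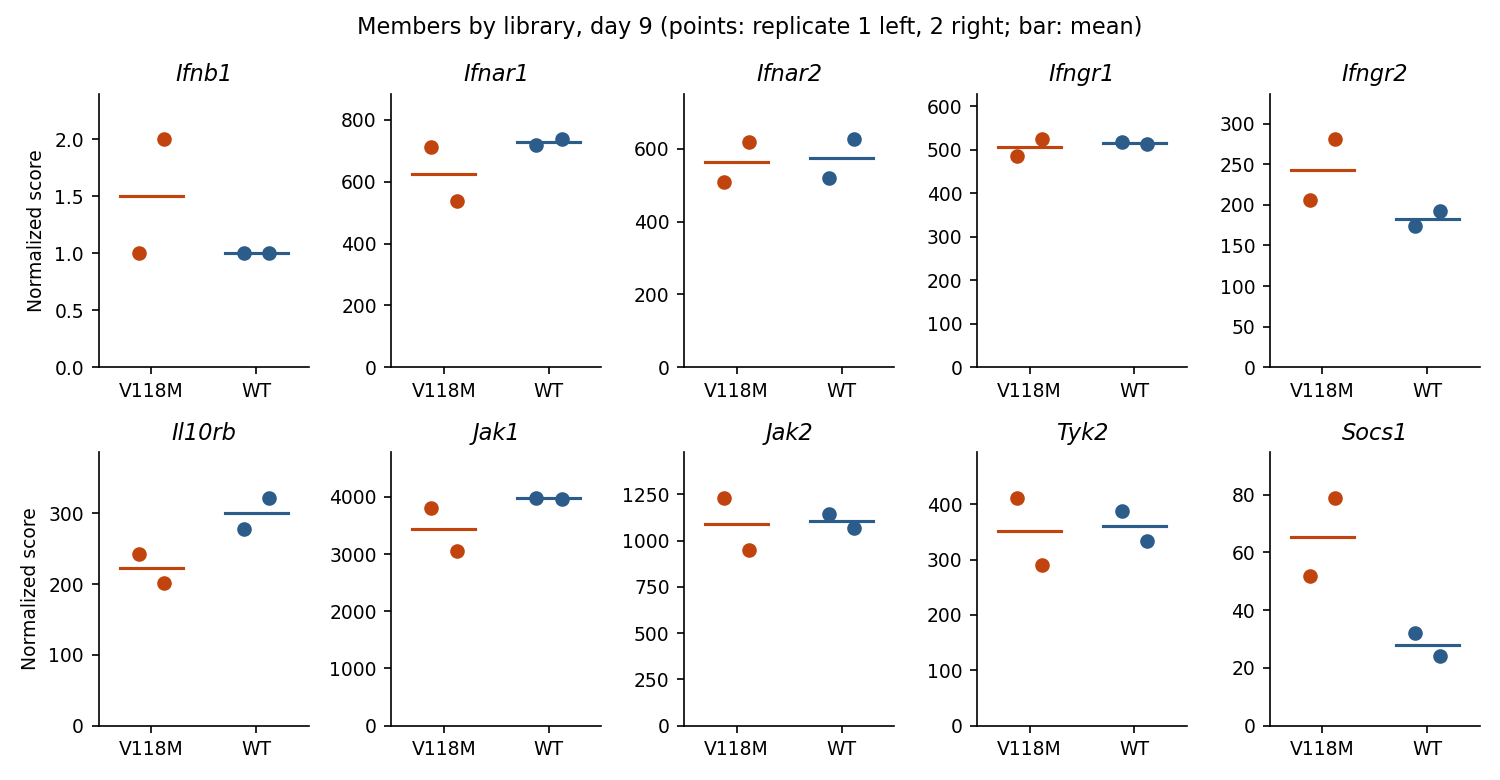
Normalized scores of the 10 genes in each library, with V118M to the left of WT, a linear axis from 0 in each panel, points for replicates 1 and 2 and a bar for the group mean. Socs1 sits at 52 and 79 in V118M and at 32 and 24 in WT, while Ifnb1, Ifnar2, Ifngr1, Jak2 and Tyk2 overlap between the groups.

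The ligand gene Ifnb1 (ENSMUSG00000048806, chromosome 4, 88522025 to 88522774, minus strand, GRCm38) was at the bottom of the scale. It scored 1 and 2 in V118M and 1 and 1 in WT. Only V118M replicate 2 was above the tie, and its single extra unit made the whole log2 fold change of 0.29 (standard error 0.60). The 95% interval ran from -1.22 to 1.81, so neither a 2-fold rise nor a 2-fold fall lay outside it. The promoter of Ifnb1 is shown because it holds the binding sequences through which this gene is switched on after infection. It comes from RefSeq on GRCm38.p6 at chr4:88522745-88523044, minus strand, 5′ to 3′, with 250 bases before and 50 after the start site. Capitals mark matches to AANNGAAA, the core bound by interferon regulatory factors, searched on both strands and held by 23.9% of 32851 promoters of the same length. There were 3 matches, AAGAGAAA beginning 159 bases before the start site and AACTGAAA beginning 139 and 126 bases before it, and they overlap neither each other nor the other motif searched.
Ifnb1: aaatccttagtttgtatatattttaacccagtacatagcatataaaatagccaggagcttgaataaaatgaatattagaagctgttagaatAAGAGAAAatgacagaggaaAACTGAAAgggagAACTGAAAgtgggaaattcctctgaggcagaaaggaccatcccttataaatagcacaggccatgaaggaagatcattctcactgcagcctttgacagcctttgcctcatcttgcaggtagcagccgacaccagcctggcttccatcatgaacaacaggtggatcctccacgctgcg

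Other interferon ligands scored under 20 in every library. Of 19 listed, 8 had a row in the table, and 4 passed the filter. Ifna2, an alpha interferon, scored 1 in all 4 libraries, and Ifna16, another, 0 and 1 in V118M and 1 and 1 in WT. Ifng, the gene for interferon gamma and chiefly a lymphocyte product, was at 0 and 19 in V118M and at 0 and 3 in WT. Ifnk, a type I interferon of keratinocytes, was at 13 and 0 in V118M and at 0 and 6 in WT. Each of these high values stood in 1 library of its group, and the groups overlapped in all 4 tested ligands. None had an unadjusted p under 0.05.

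Both chains of the type I receptor were detected in every library. Ifnar1 (chromosome 16, 91485238 to 91507441, plus strand) was at 712 and 538 in V118M and at 718 and 738 in WT. V118M replicate 2 was the lowest, and V118M replicate 1 lay close under the lower WT library. This gave a log2 fold change of -0.23 (standard error 0.19; limma adjusted p = 0.951), and of -0.032 without V118M replicate 2. Ifnar2 (chromosome 16, 91372783 to 91405589, plus strand) was at 508 and 620 in V118M and at 521 and 627 in WT. In each group replicate 1 was the lower, the spread within groups exceeded the difference between them, and the log2 fold change was -0.026 (standard error 0.19). The ratio of Ifnar1 to Ifnar2 within a library was 1.40 and 0.868 in V118M and 1.38 and 1.18 in WT.

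The interferon gamma receptor chains differed from each other in their pattern. Ifngr1, which encodes the ligand-binding chain (chromosome 10, 19591949 to 19610229, plus strand), was at 486 and 524 in V118M and at 518 and 513 in WT, with a log2 fold change of -0.031 (standard error 0.15). These 4 scores were among the most even of the receptor set, and the groups overlapped. Ifngr2, which encodes the signalling chain (chromosome 16, 91547072 to 91565623, plus strand), was at 206 and 281 in V118M and at 174 and 192 in WT. Both V118M libraries were above both WT libraries. The log2 fold change was 0.39 (95% interval -0.17 to 0.96, limma adjusted p = 0.951), and leaving out V118M replicate 2 gave 0.17, while leaving out replicate 1 of that group gave 0.62. The ratio of Ifngr2 to Ifngr1 within a library was 0.424 and 0.536 in V118M and 0.336 and 0.374 in WT, again without overlap. The difference between the 2 chains was not tested.

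Il10rb (chromosome 16, 91406164 to 91425834, plus strand) had the lowest fold change of the 10. It scored 242 and 202 in V118M and 278 and 322 in WT, so both V118M libraries were below both WT libraries. The means were 222 ± 28.3 in V118M and 300 ± 31.1 in WT (SD, n = 2 each), giving a log2 fold change of -0.43 (standard error 0.19, 95% interval -0.92 to 0.047, limma adjusted p = 0.951). It ranged from -0.56 to -0.30 with any 1 library left out. The transcript listed for Il10rb is annotated as subject to nonsense-mediated decay, and the gene overlaps Gm21970 on the same strand, which scored 0 and 1 in V118M and 0 and 0 in WT. The genes that complete its receptors were low: Il10ra, for the IL-10-specific chain, was at 1 and 0 in V118M and at 0 and 0 in WT and failed the filter. Ifnlr1, for the interferon lambda chain, was at 16 and 19 in V118M and at 32 and 27 in WT, without overlap (-0.72 on the log2 scale, standard error 0.35).

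IL-10 receptors are prominent on macrophages, and macrophage and leukocyte markers also varied between libraries. The summed score of 15 such markers was 708 and 768 in V118M and 1139 and 937 in WT, so the sums did not overlap. Single markers mostly did: of 13 tested, 1 had groups that did not overlap, Ptprc, against 28.0% of all genes tested, 0 had an unadjusted p under 0.05 or an adjusted p under 0.05 (limma), and the median log2 fold change was -0.50. Ptprc, which encodes the pan-leukocyte protein CD45, was at 30 and 0 in V118M and at 165 and 58 in WT. The markers with the highest scores overlapped, Itgam at 366 and 330 in V118M and 251 and 428 in WT and Cd68 at 142 and 110 in V118M and 136 and 206 in WT. Of the 15 markers, 7 and 3 were at 0 in the V118M libraries and 0 and 5 in the WT libraries, among them the complement gene C1qa at 0 and 0 in V118M and at 4 and 0 in WT. The summed score of 5 keratinocyte markers ran the other way, at 11612 and 15240 in V118M and 8785 and 8490 in WT. Of these 5, 4 were higher in V118M without overlap, against 28.0% of all genes tested, and 0 had an adjusted p under 0.05 (limma). The exception, Trp63, overlapped, at 112 and 92 in V118M and 105 and 107 in WT. The part of these cell types in the values of Il10rb, Ifngr2 or the other 8 genes was not tested. In bulk RNA, fewer cells of a type and less RNA per cell cannot be told apart.

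Of the 5 receptor genes, 4 lie in 1 cluster on chromosome 16, all on the plus strand in the order Ifnar2, Il10rb, Ifnar1 and Ifngr2. Il10rb begins 574 bases after the end of Ifnar2, Ifnar1 begins 59403 bases after the end of Il10rb, and Ifngr2 begins 39630 bases after the end of Ifnar1. Along this order the log2 fold changes were -0.026, -0.43, -0.23 and 0.39, so neighbours did not share 1 direction. The ratio of Il10rb to Ifngr2 within a library was 1.17 and 0.719 in V118M and 1.60 and 1.68 in WT. Tmem50b, the next gene of the table beyond Ifngr2, was at 253 and 290 in V118M and at 270 and 270 in WT.

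**Figure D2:**
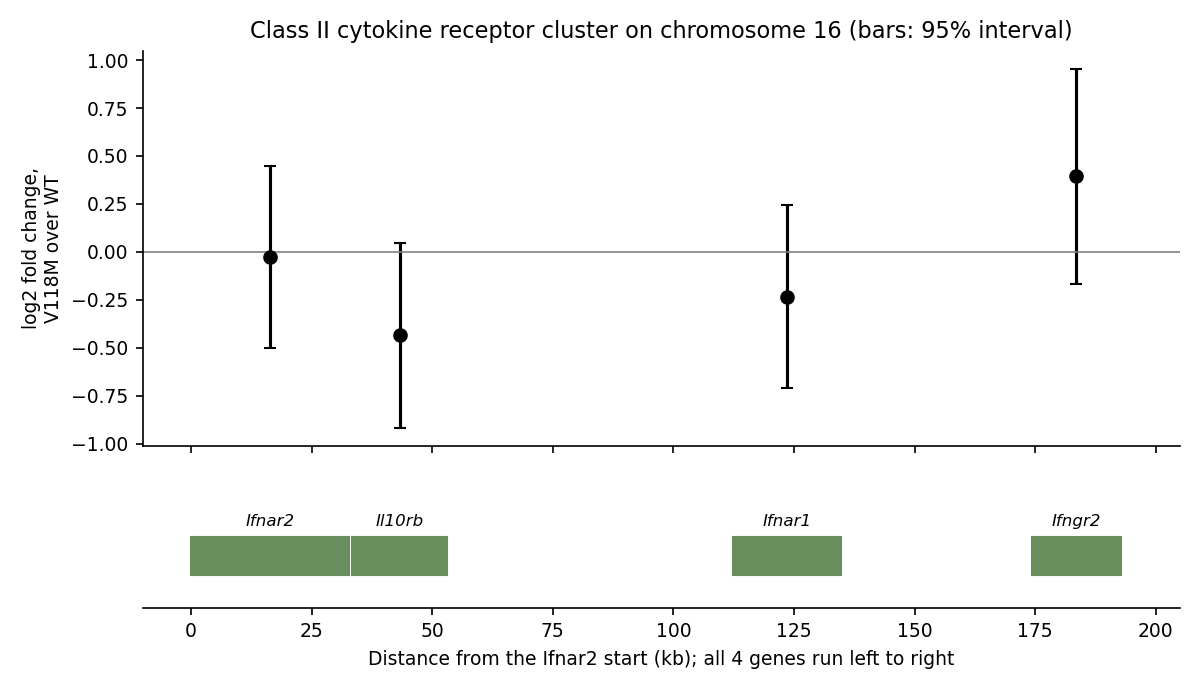
The receptor cluster on chromosome 16, with distance from the Ifnar2 start in kb on the horizontal axis, gene bodies as bars, and above them the log2 fold change of V118M over WT with its 95% interval. The points stand at -0.026, -0.43, -0.23 and 0.39 from left to right, and every interval covers 0.

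The promoters of Ifnar1 and Ifngr2 are shown because these neighbours had fold changes of opposite sign. They come from RefSeq on GRCm38.p6, plus strand, 5′ to 3′, at chr16:91484965-91485264 for Ifnar1 and chr16:91546809-91547108 for Ifngr2. In Ifnar1 capitals mark the interferon-gamma-activated site GAS, searched as TTCNNNGAA, which reads the same on both strands and is held by 8.30% of 32851 promoters. The Ifnar1 window held 1 match, TTCACGGAA, which begins 5 bases before the start site and did not overlap another motif. The Ifngr2 window held no match to GAS or to the AANNGAAA core and is all in lower case. Of the 9 members with a promoter in the reference table, Ifnar1 and Ifnar2 held a GAS match, while Il10rb had no entry.
Ifnar1: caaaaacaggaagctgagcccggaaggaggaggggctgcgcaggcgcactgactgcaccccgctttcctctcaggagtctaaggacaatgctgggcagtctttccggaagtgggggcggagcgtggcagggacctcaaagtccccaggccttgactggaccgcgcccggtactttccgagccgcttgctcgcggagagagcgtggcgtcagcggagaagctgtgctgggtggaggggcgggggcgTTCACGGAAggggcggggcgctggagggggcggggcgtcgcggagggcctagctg
Ifngr2: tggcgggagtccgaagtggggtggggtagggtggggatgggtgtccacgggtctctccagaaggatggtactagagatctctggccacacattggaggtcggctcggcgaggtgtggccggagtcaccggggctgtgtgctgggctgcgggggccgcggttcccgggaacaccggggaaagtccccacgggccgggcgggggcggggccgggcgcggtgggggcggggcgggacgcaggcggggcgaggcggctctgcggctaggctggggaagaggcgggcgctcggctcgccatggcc

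The 3 kinase genes had log2 fold changes from -0.22 to -0.029. Jak1, whose kinase serves the receptors for type I, type II and type III interferons and for LIF (chromosome 4, 101152367 to 101265282, minus strand), was at 3804 and 3059 in V118M and at 3989 and 3958 in WT. Both V118M libraries were lower, replicate 2 more so. On the log2 scale the difference was -0.22 (standard error 0.17; limma adjusted p = 0.951). It was -0.063 without V118M replicate 2, -0.38 without V118M replicate 1, and -0.13 once each library was corrected for transcript length and GC content. The transcript listed for Jak1 is 4906 bases long. Raver2, an RNA-binding protein gene that overlaps Jak1 on the opposite strand, scored 456 and 416 in V118M and 371 and 414 in WT, and the sources used here do not state whether counting used strand.

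Jak2, whose kinase binds IFNGR2 (chromosome 19, 29251828 to 29313080, plus strand), was at 1232 and 948 in V118M and at 1141 and 1066 in WT. The 2 V118M libraries lay above and below both WT libraries, and the log2 fold change was -0.029 (standard error 0.18). Tyk2, whose kinase binds IFNAR1 and the IL-10 receptor beta chain (chromosome 9, 21104068 to 21131243, minus strand), was at 412 and 290 in V118M and at 388 and 334 in WT. It had the same layout, with V118M replicate 1 highest and replicate 2 lowest, and a log2 fold change of -0.058 (standard error 0.23). The transcript listed for Tyk2 is annotated as having a retained intron. Without V118M replicate 2 both genes turned to higher values in V118M, by 0.16 for Jak2 and 0.19 for Tyk2 on the log2 scale.

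Levels of different genes were ordered per kilobase of the listed transcript, in score units, whereas the ratios of 2 genes given above are not corrected for length and serve only to compare libraries. Jak1 averaged 699.4 per kb in V118M and 809.9 in WT, above Jak2 at 216.7 and 219.4 and Tyk2 at 79.0 and 81.2. The ranges of the 3 kinases over the 4 libraries did not overlap. Among receptor chains Ifngr1 came highest, at 239.1 per kb in V118M and 244.1 in WT. Ifnar2, at 185.1 in V118M and 188.4 in WT, overlapped with Ifnar1, at 159.9 in V118M and 186.2 in WT, when single libraries are set side by side. Il10rb, at 79.5 in V118M and 107.5 in WT, stood above Ifngr2, at 65.7 in V118M and 49.4 in WT, with overlap in V118M only. Socs1 averaged 23.5 per kb in V118M and 10.1 in WT, and Ifnb1 2.0 in V118M and 1.3 in WT. The order is limited by the normalization, whose handling of transcript length the sources used here do not state.

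The feedback gene Socs1 (ENSMUSG00000038037, chromosome 16, 10782240 to 10785536, minus strand) had the largest fold change of the 10. It scored 52 and 79 in V118M and 32 and 24 in WT. Both V118M libraries were above both WT libraries, at means of 65.5 ± 19.1 in V118M and 28 ± 5.66 in WT (SD, n = 2 each). On the log2 scale Socs1 was 1.18 higher (standard error 0.35, 95% interval 0.30 to 2.07), and this did not pass over all genes tested (limma adjusted p = 0.951). It was the 1 gene of the 10 whose interval left out 0. Relative to the WT mean it was 0.88 higher in V118M replicate 1 and 1.48 higher in V118M replicate 2 on the log2 scale. The estimate stayed between 0.88 and 1.48 with any 1 library left out. Without WT replicate 2 or without either V118M library its unadjusted p was no longer under 0.05, with 3 libraries in each of these fits.

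**Figure D3:**
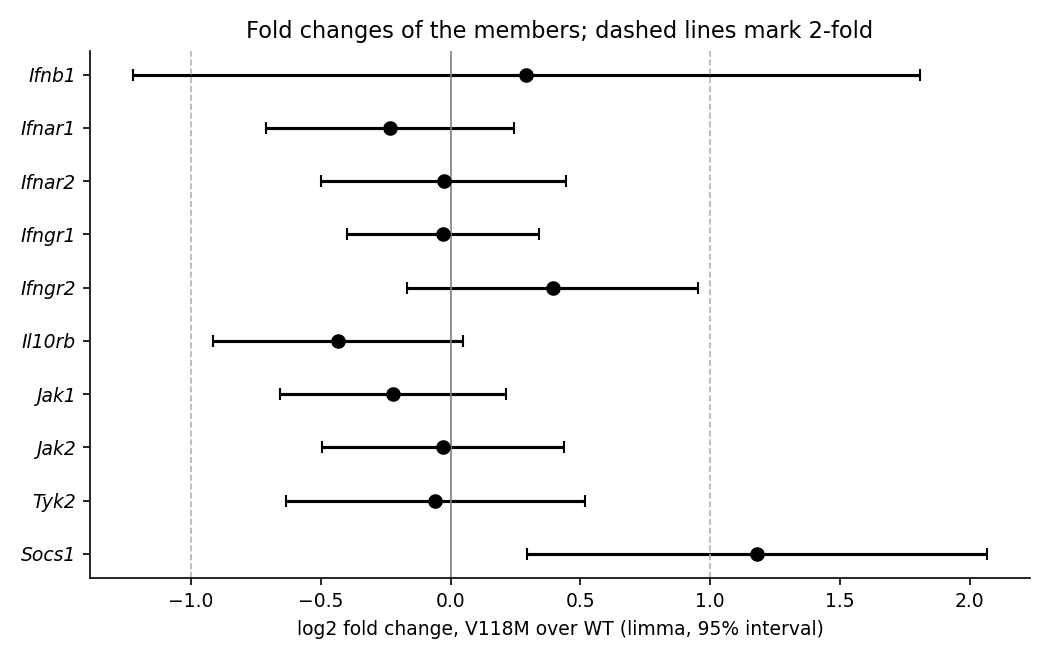
Fold changes of V118M over WT for the 10 genes on the log2 scale, as points with 95% intervals from limma, with dashed lines at 2-fold in either direction. The interval of Socs1 runs from 0.30 to 2.07, and those of the 5 receptor chains and 3 kinases cover 0 and stay within 2-fold.

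For 8 of the 10 genes, the receptor chains and the kinases, the 95% interval stayed within 2-fold in both directions. These intervals are not adjusted for the number of genes. An interval that covers 0 does not show that the groups were alike, and differences of the size estimated for Il10rb and Ifngr2 lie within what 2 libraries a group could leave undetected.

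The Socs1 promoter is shown because Socs1 stood apart from the other members in these data. It comes from RefSeq on GRCm38.p6 at chr16:10785487-10785786, minus strand, 5′ to 3′, and its start site is the one listed in the table. Capitals mark matches to AANNGAAA on both strands, the core shown for Ifnb1. Tandem copies of it make up the interferon-stimulated response element, through which type I interferons induce genes.
Socs1: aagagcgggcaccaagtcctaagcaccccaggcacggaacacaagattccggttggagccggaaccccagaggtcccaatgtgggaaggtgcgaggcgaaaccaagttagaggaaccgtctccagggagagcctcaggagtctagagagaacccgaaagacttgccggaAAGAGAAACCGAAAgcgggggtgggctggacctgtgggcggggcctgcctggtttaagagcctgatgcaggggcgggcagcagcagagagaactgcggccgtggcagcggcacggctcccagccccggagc

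The Socs1 window held 2 matches, AAGAGAAA and AACCGAAA, that overlap each other in 1 run of 14 bases beginning 81 bases before the start. Among the 9 members with a promoter, 2 held such a match, Ifnb1 and Socs1, against the 23.9% of all promoters given above. Of the type I-induced target genes listed, 8 had a promoter and 7 of these held a match. Matches overlapped in Isg15 and Bst2, and in Stat2 and Ifi44, with runs of 14 and 15 bases. Those of Ifit1, Ifit3 and Rsad2 were separate, of 8 bases each, and Irf7 held none. The longest runs of Socs1, of the ubiquitin-like modifier gene Isg15 and of the tetherin gene Bst2 are set out for comparison, each from its own promoter, 5′ to 3′, with all bases part of a match. A match is a description of the letters and not a measured binding site.
Socs1: AAGAGAAACCGAAA
Isg15: AAAGGAAACCGAAACAGAAA
Bst2: AAATGAAACTGAAA

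Of the listed genes outside the 10, those whose scores ran most like those of Socs1 over the 4 libraries were Bst2, Rsad2 and Ifit3, at root mean square distances of 0.22, 0.24 and 0.25 on the log2 scale after each gene was centred on its own mean. They are the antiviral genes for tetherin, viperin and an IFIT protein, and 77 genes were compared. For Jak1 the nearest was Stat6, at 0.063, for Tyk2 it was Stat5a, at 0.060, and for Ifngr1 it was the IL-6 receptor gene Il6ra, at 0.027. The nearest distance of Socs1 was the widest of the 10, ahead of that of Ifngr2 at 0.10. The distances are a description over 4 libraries, and the 77 genes come from lists chosen with earlier results of these data known.

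Downstream of the kinases, the transcription factor genes Irf9 and Stat2, which serve the type I interferon response, had higher scores in V118M. Irf9 was at 542 and 468 in V118M and at 220 and 244 in WT (1.12 on the log2 scale, with standard error 0.17 and limma adjusted p = 0.549). Stat2 was at 302 and 238 in V118M and at 190 and 157 in WT (0.63, standard error 0.21). Stat6, which serves IL-4 and IL-13, was at 1255 and 1080 in V118M and at 1284 and 1244 in WT, and Stat5a, which serves prolactin and growth hormone, at 758 and 502 in V118M and 739 and 643 in WT. Of 7 STAT and Irf9 genes, 0 passed over all genes tested. At an unadjusted p under 0.05 (limma), 2 were higher and 1 lower, against 2.31% and 1.70% of all genes tested. The lower one was Stat4, named after its values were seen, at 4 and 0 in V118M and at 12 and 16 in WT. The median over the 7 was -0.10.

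Most other regulators of the kinases did not reach the threshold even before adjustment. Of 18 listed, Jak3 included, 0 passed over all genes tested. The groups did not overlap in 7 higher and 4 lower genes, against 13.2% and 14.8% of all genes tested. At an unadjusted p under 0.05 (limma), 1 was higher, against 2.31% of all genes tested, and this was Usp18. This gene encodes an ISG15 protease that also binds IFNAR2 and dampens its signal, and it scored 66 and 99 in V118M and 25 and 17 in WT (1.92 on the log2 scale, with standard error 0.36 and limma adjusted p = 0.804). Socs2, another member of the SOCS family, was at 430 and 760 in V118M and at 335 and 396 in WT. Socs3, a feedback inhibitor of LIF and IL-6 signalling, was at 888 and 922 in V118M and at 742 and 764 in WT, without overlap (0.26, standard error 0.14). The phosphatase gene Ptpn6, at 58 and 52 in V118M and 82 and 79 in WT, and the STAT3 inhibitor gene Pias3, at 491 and 412 in V118M and 602 and 563 in WT, had the lowest fold changes of this list among genes with a mean of at least 50. Those were -0.54 and -0.37. The median over the 18 was 0.027.

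Other receptor chains that use JAK kinases were 15 genes with a median of 0.16 and 0 past the threshold over all genes. At an unadjusted p under 0.05 (limma), 1 was higher and 1 lower, against 2.31% and 1.70% of all genes tested. Il6st, which encodes the LIF and IL-6 signalling chain gp130, was at 3873 and 2308 in V118M and at 3550 and 3426 in WT. The prolactin receptor gene Prlr was at 114 and 96 in V118M and at 68 and 72 in WT (0.57 on the log2 scale, standard error 0.22). Il4ra, for the IL-4 receptor alpha chain, was at 941 and 776 in V118M and at 728 and 649 in WT. Il6ra was at 375 and 408 in V118M and at 420 and 406 in WT. The 1 lower gene, named after its values were seen, was Csf2rb, a receptor chain of myeloid cells, at 0 and 1 in V118M and at 10 and 3 in WT. The groups did not overlap in 6 of these 15, 5 higher and 1 lower, against 28.0% of all genes tested. In the class II family to which the interferon receptors belong, 5 other chains were tested and 0 had an unadjusted p under 0.05. Il20rb, for a chain of the IL-20 receptors, was at 176 and 189 in V118M and at 148 and 154 in WT, and F3, for tissue factor, at 232 and 358 in V118M and 238 and 279 in WT. Il22ra1 and Il20ra scored under 10 in all 4 libraries.

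Upstream of Ifnb1, 15 genes for sensors, adaptors and factors that induce it had a median of -0.014. The groups did not overlap in 6 higher and 4 lower genes, against 13.2% and 14.8% of all genes tested. At an unadjusted p under 0.05 (limma), 3 were higher and 0 lower, against 2.31% and 1.70%. Irf7, the factor that amplifies interferon production, was at 254 and 280 in V118M and at 48 and 50 in WT (2.42 on the log2 scale, with standard error 0.20 and limma adjusted p = 0.205). Ddx58, for the RNA sensor RIG-I, was at 527 and 434 in V118M and at 314 and 317 in WT. The third such gene was Ifih1, for the RNA sensor MDA5, named after its values were seen, at 302 and 325 in V118M and at 202 and 219 in WT. The kinase gene Tbk1 was at 768 and 786 in V118M and at 835 and 894 in WT, and the adaptor gene Ticam1 at 192 and 95 in V118M and 167 and 195 in WT. Irf7 and Ddx58 are themselves interferon-induced genes.

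Targets of the pathway were listed in 2 sets, chosen with earlier results of these data known, so that their direction is not independent evidence. Of 11 type I-induced genes tested, 11 had higher values in V118M, with a median of 1.63, and 0 passed the threshold over all genes (lowest limma adjusted p = 0.205). An unadjusted p under 0.05 (limma) was reached by 10 of them, against 2.31% of all genes tested that were higher at that threshold. Isg15 was at 81 and 196 in V118M and at 9 and 15 in WT. The exception was Mx1, named after its values were seen, at 21 and 28 in V118M and at 22 and 21 in WT. Rsad2 was at 182 and 268 in V118M and at 120 and 126 in WT (0.84, standard error 0.25). Oas2, which makes the signal that activates RNase L, scored 310 and 230 in V118M and at 38 and 28 in WT. Of 8 genes skewed to interferon gamma, 6 were tested, with a median of 0.24 and 0 at an unadjusted p under 0.05 (limma). The groups did not overlap in 3 higher genes, Irf1, Gbp2 and Socs3, and in 1 lower, Irf8. These counts stand against 13.2% and 14.8% of all genes tested. Of the 6, Irf1 was at 66 and 70 in V118M and at 48 and 48 in WT. Gbp2, a GTPase gene, was at 78 and 92 in V118M and 59 and 52 in WT, and Cxcl10 at 2 and 8 in V118M and 4 and 3 in WT. Cd274, for PD-L1, was at 20 and 28 in V118M and at 30 and 14 in WT, and Irf8, a myeloid factor, at 0 and 0 in V118M and at 1 and 2 in WT. Irf7, Usp18 and Stat2 of the first set and Socs3 of the second are the same genes as those given above at other steps. The difference between the 2 sets was not tested.

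**Figure D4:**
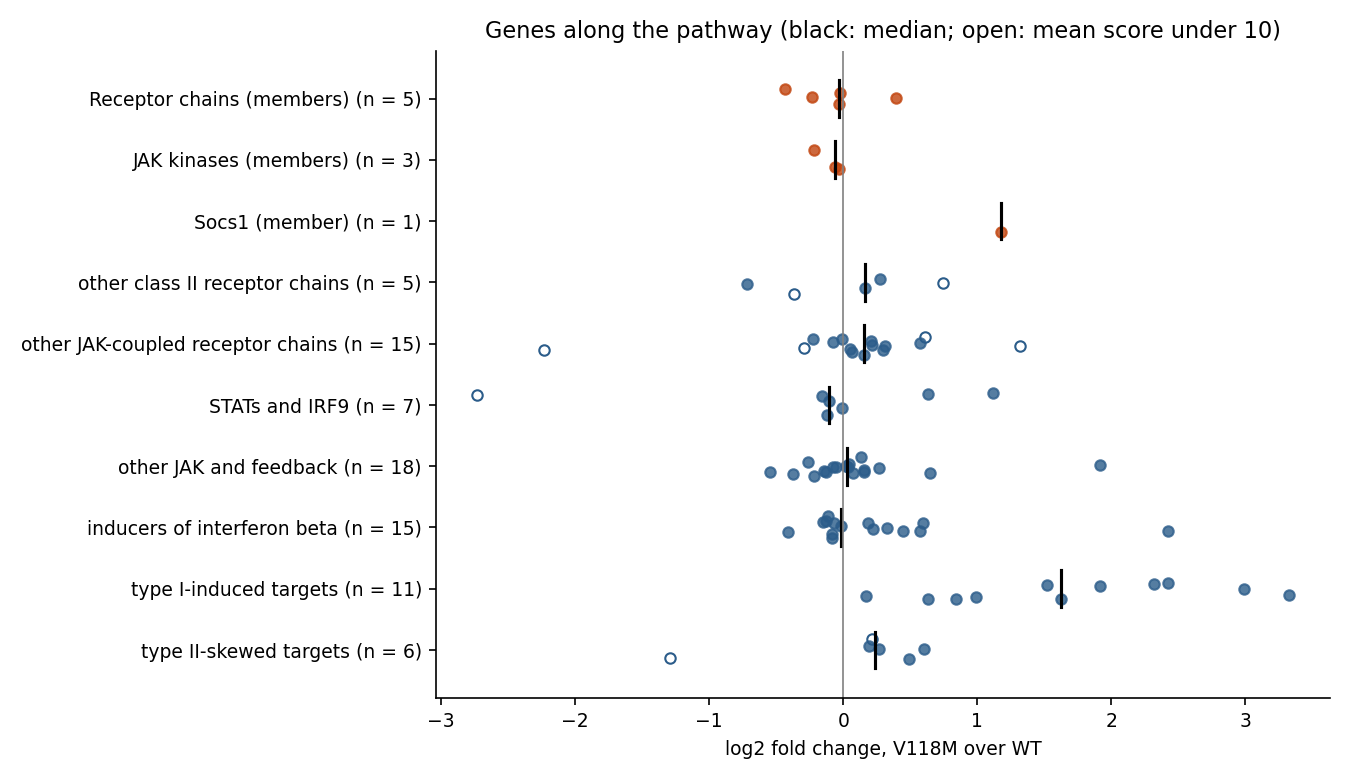
Fold changes of V118M over WT on the log2 scale for the genes at each step, from receptors and kinases at the top to targets at the bottom, with 1 point a gene, a black line at each median and open points for mean scores under 10. Medians lie near 0 for the receptor chains and kinases, Socs1 stands at 1.18 and the type I-induced targets have a median of 1.63. Irf7, Usp18, Stat2 and Socs3 are listed at more than 1 step and drawn at each.

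Library by library, V118M replicate 2 was the lowest of the 4 for 5 of the 10 genes, Ifnar1, Il10rb, Jak1, Jak2 and Tyk2, and the highest for 4, Ifnb1, Ifngr1, Ifngr2 and Socs1. In Socs1, Il10rb, Ifngr2, Ifnar1 and Jak1 the groups did not overlap. Leaving out 1 library could therefore not turn the sign of their fold changes. For Ifnar2, Ifngr1, Jak2 and Tyk2, whose estimates were all under 0.1 in size, the sign did turn.

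**Figure D5:**
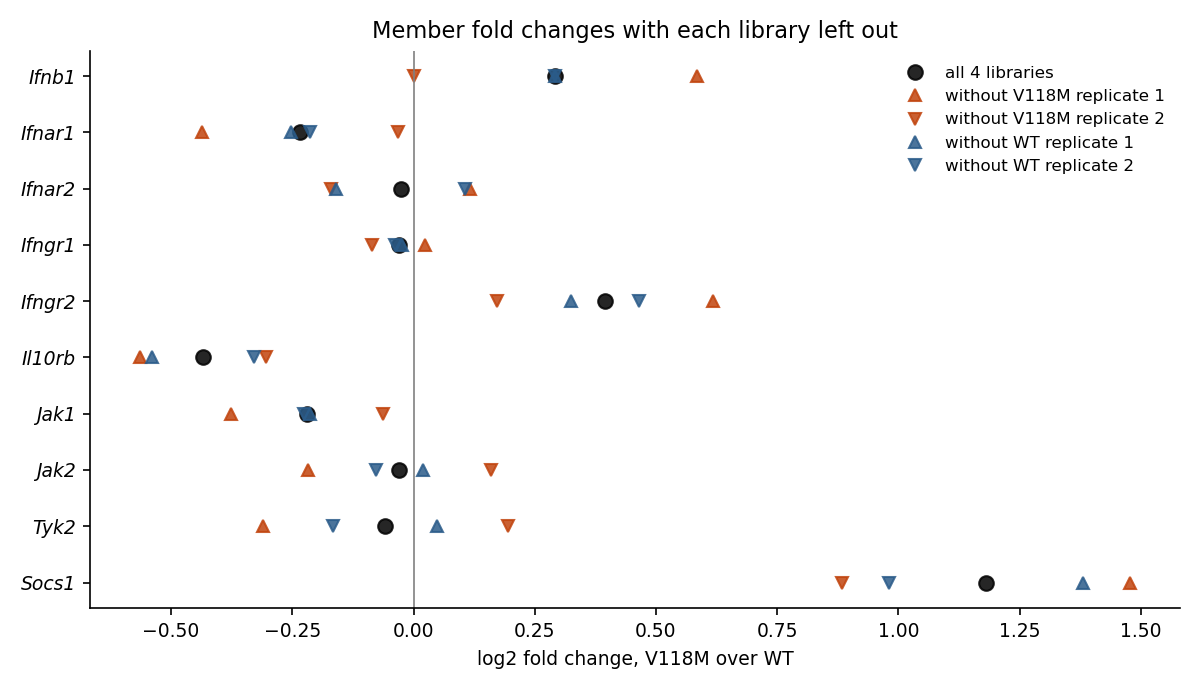
Fold changes of V118M over WT on the log2 scale for the 10 genes with all 4 libraries (black) and with each library left out (red for V118M, blue for WT). Socs1 stays between 0.88 and 1.48 and Il10rb between -0.56 and -0.30, while Ifnar2, Ifngr1, Jak2 and Tyk2 fall on both sides of 0.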

How the data were processed

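RNA of 4 libraries was sequenced. Per the labels' protocols, TRIzol RNA went into TruSeq Nano RNA libraries. RSEM, Bowtie2, DESeq2, FastQC and the build mm10 appear, without versions or roles, in the submitters' processing notes. The deposited table gives 1 score a gene and library. These scores cannot be raw counts, since 76.7% of ranks carry 1 shared value in the 4 sorted columns and the totals differ by at most 0.0321%. How the authors normalized these scores is not stated in the sources used here. With sorted columns so nearly shared, equal medians and ties across libraries reflect rank and do not show equal expression. Gene coordinates come from GENCODE M21 (GRCm38), to which 22304 of 22369 listed transcripts matched.

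Scores were analysed as log2(score + 1) with limma 3.58.1 in R 4.3.3, using trend and robust options, group as the only term, two-sided tests and Benjamini-Hochberg adjustment over 19547 genes. The pipeline was tested on simulated data. Members and lists were chosen with earlier results of these data known. The 2 promoter motifs, and the promoters printed, were chosen after longer motif forms had been searched in the same promoters. A gene of the pathway is not reported here. Besides the members, the text names the 2 highest and 2 lowest fold changes of each list among genes with a mean score of at least 50 (all tested genes where fewer than 5 qualified), the nearest in pattern and some markers. Il10ra and the genes that overlap or neighbour members were added after their values were seen. Alternatives were a pseudocount of 0.1 or 5, no filter, a mean of at least 10, no trend or robust option, median-centred libraries, array weights, a length and GC trend removed, the replicate number as a block, and each library left out.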

Additional observations from a re-analysis of the deposited data

How the results depend on the processing

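None of the 10 genes passed an adjusted p of 0.05 (limma) under any of the 14 alternatives, in 1 of which, the mean of at least 10, Ifnb1 was not tested. Socs1, Il10rb, Ifngr2, Ifnar1 and Jak1 kept their sign in all of them. Since the groups of these genes did not overlap, most alternatives could not have turned it. Only the median-centring and the length and GC correction could have done so. With any 1 library left out, the log2 fold change ranged from -0.17 to 0.12 for Ifnar2, from -0.085 to 0.024 for Ifngr1, from -0.22 to 0.16 for Jak2 and from -0.31 to 0.19 for Tyk2. It ranged from 0 to 0.59 for Ifnb1. With the length and GC trend removed, alone or with the replicate block, Jak2 was at 0.037 and Tyk2 at 0.065, and the median over the 10 was 0.016. That median ranged from -0.097 to -0.0019 with any 1 library left out.

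Counts moved more, and where a value turned or moved, the cause was not tested. At an unadjusted p under 0.05, all genes numbered 1441 with no filter and from 221 (without WT replicate 1) to 5096 (without V118M replicate 1) with any 1 library left out. Among the 10 there were 2 with the length and GC trend removed (Il10rb and Socs1), and from 0 (without WT replicate 2) to 3 (without V118M replicate 1: Ifnb1, Ifnar1 and Jak1) with 1 library left out. Non-overlapping groups numbered from 5 to 9 there, with a single library in 1 group. A single library is more easily separated from the other group, and the share of all genes is not given for these fits. The numbers therefore do not set the 10 genes apart from other genes. Listed pathway genes at an unadjusted p under 0.05 numbered from 7 to 28 in these fits, against 16 with all libraries.

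The titles number the replicates in both groups, but nothing says that equal numbers share a culture or day. The deviations of same-numbered libraries correlated at 0.303, a value that 2 pairs share by construction. With the replicate block, 3 of all genes passed an adjusted p of 0.05 and 1204 an unadjusted p of 0.05, and 1 pathway gene passed, Oas2. With the block and the length and GC trend removed, these numbers were 21, 1405 and 5 (Irf7, Isg15, Ifit1, Oas2 and Ifi44), and 3 of the 10 had an unadjusted p under 0.05, Ifngr2, Il10rb and Socs1. With 2 libraries a group and an unknown depth, small changes could not be resolved. Larger ones did not pass in the main fit either. Isg15, at a log2 fold change of 3.33, had a limma adjusted p of 0.589.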
